A study of Mus musculus with 12 samples.

Results

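The genes described here build ribosomes. They are 54 named mouse genes whose products work in the nucleolus or on pre-ribosomes, found by symbol among the 22467 transcripts of the count table. All 54 were in the table, each with 1 transcript, and all 54 were among the 12576 transcripts with enough ribosome profiling counts to be tested. Their lowest counts in any library were 411 in the ribosome profiling and 367 in the RNA-seq, so none was near the filter. They fall into 5 groups by known role. These are 6 genes of RNA polymerase I and its factors, 8 of small nucleolar ribonucleoproteins (snoRNPs), 17 of small-subunit assembly, 19 of large-subunit assembly and 4 nucleolar proteins that act in several steps.

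The study compared 3 wild-type embryos (WT, Rpl10a +/+) with 3 embryos homozygous for a loss-of-function allele of Rpl10a (LOF, Rpl10a LOF/LOF), all taken whole at E8.5. RPL10A is a protein of the large ribosomal subunit, and the LOF allele, made by CRISPR editing in mice, lengthens the N-terminus of the protein rather than removing the gene. The mice had a C57BL/6 background. The study states that embryo sex was not determined and that its embryo experiments drew on more than 1 litter. The litter of each embryo here is not given in the sources used. Each embryo was lysed alone, and its cleared lysate, from which nuclei had been spun down, gave 1 library of ribosome-protected fragments (RPF) and 1 RNA library. RPF counts are ribosomes within coding sequences (CDS), RNA counts are fragments over whole transcripts, and their ratio, RPF/RNA, is the ribosome load per RNA. Total counts were 7041357 to 10863499 in the RPF libraries and 9132521 to 26561843 in the RNA libraries.

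Ribosome production starts in the nucleolus, where RNA polymerase I transcribes ribosomal DNA into 1 long precursor RNA. Box C/D and box H/ACA snoRNPs modify this RNA, and a large number of assembly factors fold it, cut it and join it to ribosomal proteins, in separate lines for the small and the large subunit. Growing embryonic cells make these factors in quantity, and MYC, which binds the E-box CACGTG, is known as an activator of many of their genes.

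The E-box sequences are shown because these letters were more frequent in the promoters of the members than in those of all genes. RefSeq promoter windows (GRCm38.p6, 250 bases before the transcript start and 50 after it) were at hand for 47 of the 54 genes, with 56 windows in all. The E-box CACGTG, which reads the same on both strands, was in the windows of 13 of the 47 genes, 27.7%, against 11.9% of the 9873 tested genes with a window. By window these were 23.2% of 56, against 9.89% of the windows of tested genes and 7.15% of all 32851. No window was at hand for Bop1, Fbl, Gnl2, Npm1, Rrp12, Rrs1 and Tcof1. Of the 14 E-boxes in members, 4 began before the transcript start and 10 after it. The group with the highest share was small-subunit assembly (6 of 16 genes), and none of the 7 snoRNP genes with a window had one. The stretches of 30 bases around 5 of them follow, with the E-box in capitals, each 5′ to 3′ on the strand of its gene. The first 3 belong to genes that were higher in LOF RNA, and the last 2 to Rrn3, the 1 member with a pair of E-boxes. They lie at chr6:125131811-125131840 (plus strand, 60 bases before the start), chr10:88826765-88826794 (minus strand, at base 38 of the transcript), chr11:72441347-72441376 (plus strand, at base 41), and chr16:13780472-13780501 and chr16:13780639-13780668 (plus strand, 215 and 48 bases before the start).
Nop2: gtgtccctggatCACGTGtgttccggtgcc
Utp20: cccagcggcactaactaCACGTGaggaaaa
Mybbp1a: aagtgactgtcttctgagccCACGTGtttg
Rrn3, far site: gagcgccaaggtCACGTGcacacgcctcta
Rrn3, near site: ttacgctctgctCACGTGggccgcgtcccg

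Genes with and without these letters overlapped in their response. Here "called" means an FDR under 0.1, and 1.77% of all transcripts tested were called higher in RNA. The median RNA log2 fold change was 0.13 in the 13 genes with an E-box, of which 3 were called higher. It was 0.08 in the 34 without one, of which 3 were called higher. In RPF the order was the other way, with medians of 0.08 and 0.12. The 7 genes with no window had medians of 0.15 in both, and 3 of them were called in RNA. RNA changes ran from -0.00 to 0.30 with the E-box and from -0.17 to 0.39 without it. A start at C followed by 4 pyrimidines, the mark of terminal oligopyrimidine (TOP) mRNAs, was in 0 of the 56 members' windows. It was in 2.34% of the windows of tested genes and in 20.3% of the 64 windows of cytoplasmic ribosomal protein genes. Only the listed start base was read, so a start listed a few bases off is missed. The 0 therefore does not show that the members lack TOP mRNAs.

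In wild-type embryos, ribosome biogenesis genes were among the more heavily translated genes of the table. Their RPF level per kilobase of counted CDS had a median of 109 CPM per kb (range 36.7 to 7273), against 13.9 over all transcripts, and the lowest member stood at percentile 71.1. The ratio of RPF to RNA, both per length, had a median of 2.34 in the members and 1.68 over all transcripts, and 43 of 54 members lay above that overall median. The groups were ordered, by this median ratio, snoRNP (3.40), multifunctional nucleolar (3.12), large-subunit assembly (2.68), small-subunit assembly (2.08) and RNA polymerase I (1.73), the last close to the overall median. All 8 snoRNP genes were above it, against 3 of 6 RNA polymerase I genes. These ranks are a description of wild-type levels, and the groups' ranges overlapped.

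**Figure D1:**
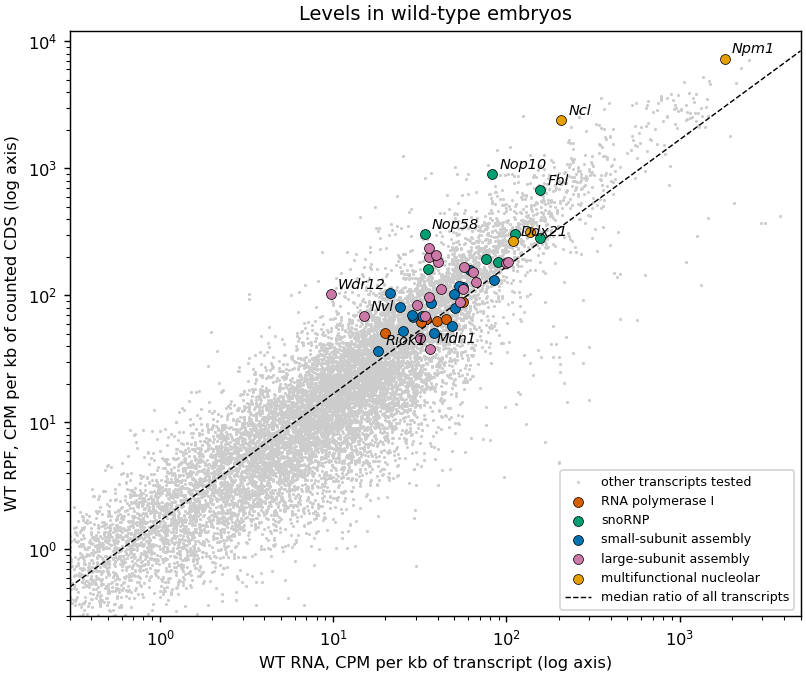
Wild-type RPF level per kb of counted CDS (y, log axis, CPM per kb, mean of 3 embryos) against wild-type RNA level per kb of transcript (x, log axis), with members coloured by group, other tested transcripts in grey and the median ratio of 1.68 as a dashed line. Npm1 stands at the top with 7273 CPM per kb, and 43 of 54 members lie above the line.

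Npm1, which encodes the nucleolar chaperone nucleophosmin, had the highest RPF level per kb of all transcripts tested (7273 CPM per kb), with 1821 CPM per kb in RNA. Ncl (nucleolin) followed among the members with 2405 CPM per kb in RPF, and Nop10, a small core protein of H/ACA snoRNPs, with 903. In the other groups the highest RPF levels per kb were those of Nip7 (235, large subunit), Imp3 (159, small subunit) and Rrn3 (88.2, the factor that links RNA polymerase I to its promoter). The lowest ratios of RPF to RNA were those of Mdn1 (1.05), the giant ATPase that strips factors from the pre-60S particle, and Bms1 (1.19), a GTPase of the small-subunit processome. Ubtf (1.45), Nop56 (1.83) and Mybbp1a (2.32) had the lowest ratio of their groups. The ratio uses 1 listed transcript per gene, and the highest ratios partly belong to genes whose CDS is a small part of it. Ncl, at 11.6, has 8202 nt listed for a CDS of 2121 nt, and Wdr12, at 10.5, has 10012 nt for 1269 nt. Nop10, at 10.9, has 1109 nt for 192 nt. Before division by length, mean WT CPM in RPF and RNA were 4957 and 1705 for Ncl. They were 123 and 96.7 for Wdr12, and 119 and 92 for Nop10.

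Rpl10a itself, the targeted gene, was measured first, though counts on canonical transcripts do not show the added N-terminal sequence. Its RPF were 1562, 1611 and 1679 CPM in the WT embryos and 1125, 1040 and 940 CPM in the LOF embryos. Its RNA was 849, 789 and 870 CPM in WT and 695, 695 and 753 CPM in LOF. Both sets lay apart, with log2 fold changes of -0.64 ± 0.07 (SE, FDR 0.00689) in RPF and -0.23 ± 0.06 (FDR 0.0678) in RNA by edgeR's quasi-likelihood test, which is the test behind each FDR given here. Each library's values are CPM after TMM normalization, n = 3 embryos a genotype throughout, and "called" means an FDR under 0.1 over all 12576 transcripts.

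In LOF embryos the RNA of 9 ribosome biogenesis genes was higher than in WT, and none was lower. The 9 were Polr1a and Tcof1 (RNA polymerase I), Utp20, Rrp12 and Nop14 (small subunit), Nop2 and Rrs1 (large subunit), and Mybbp1a and Ddx21 (multifunctional). Over all transcripts tested, 1.77% were called higher in RNA. The changes were small, between 1.13-fold for Rrs1 and 1.31-fold for Polr1a. Over the 54 members the median RNA log2 fold change was 0.11 and 48 had a positive value, while over all transcripts the median was -0.00 and 49.4% were positive. In 25 of 54 members all 3 LOF embryos lay above all 3 WT embryos in RNA, against 10.2% of all transcripts, and in none did they lie below.

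In RPF 2 members were called, both higher, Polr1a and Nolc1, against 1.05% of all transcripts called higher. The median RPF log2 fold change of the 54 was 0.13, against 0.00 over all transcripts, and 47 had a positive value, against 50.9% over all. Without LOF embryo 1 the median was 0.05 and 42 values were positive. All LOF embryos lay above all WT embryos in RPF in 22 members, against 9.92% of all transcripts, and below them in none. RPF and RNA changes thus had the same sign in most members. Across the 54 genes the log2 fold changes in RPF and in RNA had a Spearman correlation of 0.593 (0.452 over all transcripts), given as a description, since genes share the same 6 embryos.

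In RPF/RNA no member was called, and none of the 12576 transcripts was (0% by the edgeR interaction test). This test did not use the pairing of RPF and RNA libraries by embryo, and its lowest FDR over all transcripts was 0.974. With a block for each embryo, the form of the replicate block in RPF/RNA, the lowest FDR was 0.196 and no transcript was called. The median member changed by 0.00 on the log2 scale, with a range from -0.16 to 0.28, and 2 of 54 members had an unadjusted p under 0.05, both higher. Over all transcripts 312 were higher and 247 lower at that level. In 5 members, Nolc1, Nop16, Bop1, Gnl3 and Riok1, the embryos' ratios did not overlap, all higher in LOF, against 12% of all transcripts in either direction.

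**Figure D2:**
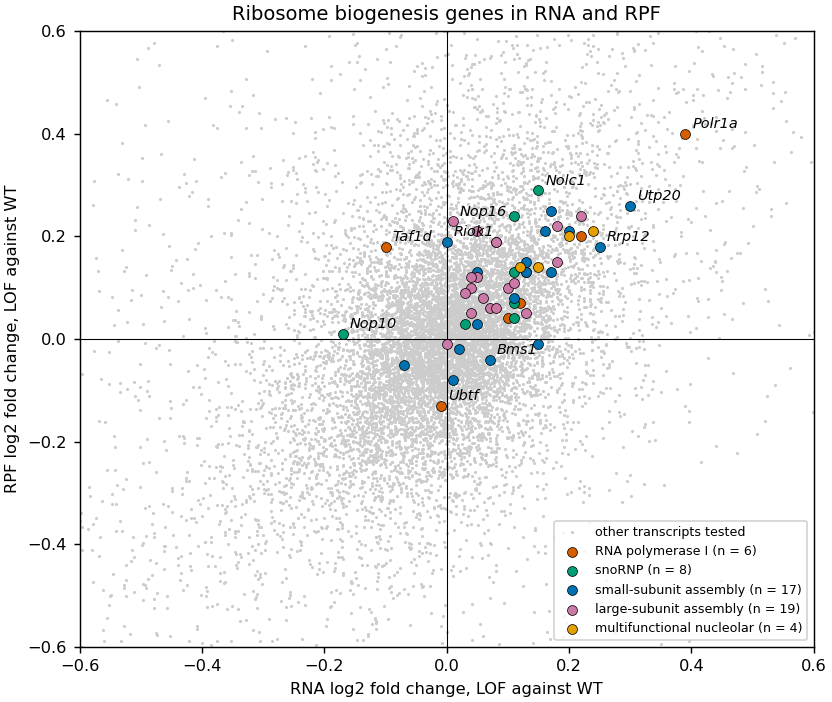
Log2 fold change of LOF against WT in RPF (y) and in RNA (x) for the 54 members, coloured by group, over all other tested transcripts in grey, with both axes cut at 0.6 in size. Of the members, 48 lie right of zero in RNA and 47 above zero in RPF, with Polr1a farthest out at 0.39 and 0.40.

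Over the 54 members together, each LOF embryo showed the shift, though not to the same extent. The mean over the 54 members, relative to the WT mean, was 0.12, 0.10 and 0.08 on the log2 scale in the RNA of LOF embryos 1, 2 and 3, and -0.01, -0.03 and 0.04 in the WT embryos. In RPF it was 0.19, 0.08 and 0.08 in the LOF embryos and -0.01, -0.01 and 0.02 in WT. By this mean over all 54, the LOF embryos thus lay above the WT embryos in both kinds of library. LOF embryo 1 was the highest in RPF. In RPF/RNA the LOF means were 0.07, -0.02 and 0.00, on both sides of the WT means of 0.00, 0.01 and -0.01. Of the 54 genes, 43, 37 and 32 were above all WT embryos in the RNA of LOF embryos 1, 2 and 3. Of all transcripts, 28.8%, 27.7% and 32.2% were. Within the snoRNP group the RNA means overlapped, with LOF embryo 3 at 0.03 and WT embryo 3 at 0.06.

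**Figure D3:**
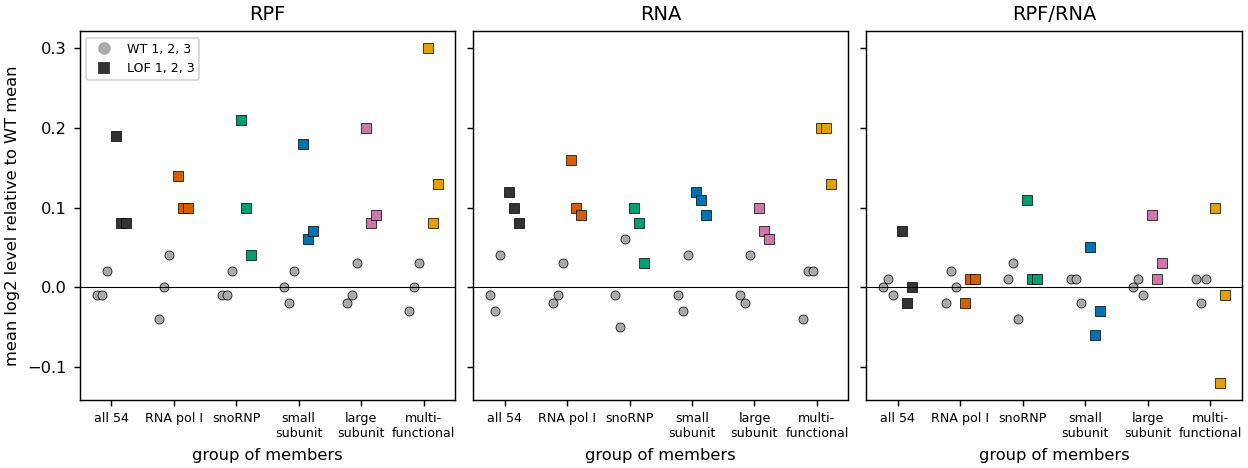
Mean log2 level over the members of each group in each embryo, relative to the WT mean (y), for RPF, RNA and RPF/RNA, with WT embryos as grey circles and LOF embryos 1, 2 and 3 as coloured squares from left to right. For the mean of all 54 members, LOF squares lie above the WT circles in RPF (0.08 to 0.19) and RNA (0.08 to 0.12). In RPF/RNA LOF embryo 1 (0.07) lies above and LOF embryo 2 (-0.02) below the WT circles. In snoRNP RNA, LOF embryo 3 (0.03) lies below WT embryo 3 (0.06).

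The embryos also differed in sex and tissue content. Y-linked genes summed to 154 to 183 CPM in the WT embryos and in LOF embryo 2, but to 9.09 or less in LOF embryos 1 and 3, so that sex and genotype cannot be fully told apart. With the Y-linked level as a covariate the members' median RNA change was 0.12, 45 of 54 values were positive and no member was called in RNA or RPF, where 35 and 22 of all transcripts were. LOF embryo 2, with a Y-linked level like that of the WT embryos, had 37 of 54 members above all WT embryos in RNA and 4 below. Against it alone the median RNA change was 0.11, with Polr1a the 1 member called among 100 transcripts, and the median RPF change was 0.08, with 5 members called among 486 transcripts. With all embryos 631 transcripts were called in RNA and 276 in RPF. Summed markers of visceral endoderm (12 of 12 genes detected, none at 0) were 3143 to 3944 CPM in WT RNA and 894 to 2197 in LOF RNA, and 6441 to 8521 and 2305 to 4877 CPM in RPF. Markers of primitive red cells (7 of 7 detected) were 395 to 1649 CPM in WT RNA and 1468 to 2445 in LOF RNA, and 837 to 2818 and 3460 to 5814 CPM in RPF. Markers of the embryo proper were 428 to 459 CPM in WT RNA and 405 to 572 in LOF RNA, and 278 to 291 and 252 to 276 CPM in RPF. The part of these tissues in the changes of the 54 genes was not tested, and in whole embryos fewer cells of a type and less RNA per cell cannot be told apart.

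RNA polymerase I showed the largest single change. Of its 6 genes, 2 were higher in RNA and 1 in RPF, with medians of 0.11 and 0.12. Polr1a (chr6:71909061-71982475, plus strand, 34 exons) encodes the largest subunit of the enzyme. Its RNA was 176, 195 and 181 CPM in WT and 239, 243 and 240 CPM in LOF. All LOF embryos were above all WT embryos and closely alike, and the log2 fold change was 0.39 ± 0.05 (SE, FDR 0.00715). Its RPF were 242, 266 and 260 CPM in WT and 378, 284 and 348 CPM in LOF, again without overlap, but with LOF embryo 2 nearer to WT. The RPF log2 fold change was 0.40 ± 0.10 (FDR 0.0901), and 0.15 against LOF embryo 2 alone (FDR 0.276). Its RPF/RNA change was 0.01 ± 0.12.

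Tcof1, which encodes treacle, a partner of RNA polymerase I at ribosomal DNA, had RNA of 171, 197 and 175 CPM in WT and 212, 206 and 216 CPM in LOF. The sets lay apart by a narrow margin, with a log2 fold change of 0.22 ± 0.06 (FDR 0.0851). Its RPF were 249, 247 and 244 CPM in WT and 273, 261 and 312 CPM in LOF, a change of 0.20 ± 0.07 that was not called (FDR 0.276). The other core factors were not called. Polr1b, the second-largest subunit, had 0.10 ± 0.05 in RNA and 0.04 ± 0.07 in RPF. Rrn3 had 0.12 ± 0.05 and 0.07 ± 0.07. Ubtf, the architectural factor that keeps ribosomal genes open, had RNA near 0 (-0.01 ± 0.05).

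Ubtf RPF depended on the embryo. They were 136, 144 and 152 CPM in WT and 108, 165 and 122 CPM in LOF, so that LOF embryos 1 and 3 were below all WT embryos and LOF embryo 2 above them. The log2 fold change was -0.13 ± 0.13, and -0.33 without LOF embryo 2, where it was called lower. Taf1d, a subunit of the promoter selectivity factor, had the lowest counts of the group. Its RPF were 46.9, 48.1 and 52.7 CPM in WT and 67.0, 49.8 and 51.2 in LOF, while its RNA was 102, 86.4 and 113 CPM in WT and 102, 98.3 and 77.3 in LOF. Its RPF/RNA change of 0.28 ± 0.18 was the largest of all members in size and was not called, and its groups overlapped. A gene on the other strand overlaps its exons, and other such genes overlap those of Nop56, Dkc1, Nhp2, Tsr1, Bop1, Gnl2, Gnl3, Pes1 and Mybbp1a. No counting strand is stated, so reads of these members and of their antisense partners cannot be told apart.

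Of the 8 snoRNP genes none was called in RNA and 1 in RPF, with medians of 0.11 and 0.10. Nolc1 (chr19:46075863-46085528, plus strand) encodes NOPP140, a chaperone that brings snoRNPs to the nucleolus. Its RPF were 399, 392 and 395 CPM in WT and 498, 457 and 492 CPM in LOF. The LOF embryos lay well above the tightly grouped WT embryos, at a log2 fold change of 0.29 ± 0.06 (FDR 0.0600). Its RNA was 276, 273 and 283 CPM in WT and 311, 310 and 298 CPM in LOF, without overlap, at 0.15 ± 0.04 (FDR 0.126). The ratio of RPF to RNA was higher in each LOF embryo, with an RPF/RNA change of 0.14 ± 0.07 that was not called.

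The catalytic and core proteins of box C/D snoRNPs were not called. Fbl, the methyltransferase fibrillarin, had RPF of 628, 637 and 593 CPM in WT and 656, 643 and 608 CPM in LOF, which overlapped (0.04 ± 0.06). Its RNA did not overlap (0.11 ± 0.05, FDR 0.243). Nop56 had 0.24 ± 0.07 in RPF (FDR 0.179) and 0.11 ± 0.04 in RNA, both without overlap, and Nop58, its partner, 0.07 ± 0.07 and 0.11 ± 0.05. Among the H/ACA proteins, Dkc1 (dyskerin, the pseudouridine synthase, X-linked) had 0.13 ± 0.08 in RPF and 0.11 ± 0.06 in RNA. Nhp2 had 0.13 in both, and Gar1 0.03 in both.

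Nop10 had the lowest RNA log2 fold change of the 54. Its RNA was 94.9, 83.6 and 97.6 CPM in WT and 85.3, 82.4 and 75.5 CPM in LOF, which overlapped through LOF embryo 1. The log2 fold change was -0.17 ± 0.07 (FDR 0.234), the 1 member with an unadjusted p under 0.05 on the lower side, while its RPF were level (0.01 ± 0.08).

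Of the 17 small-subunit genes 3 were higher in RNA, Utp20, Rrp12 and Nop14, and none was called in RPF, with medians of 0.13 in both. Utp20 (chr10:88746607-88826804, minus strand, 62 exons) encodes a very large scaffold of the small-subunit processome. Its RNA was 272, 284 and 283 CPM in WT and 357, 345 and 333 CPM in LOF. All LOF embryos were well above WT, at 0.30 ± 0.05 (FDR 0.0136). Its RPF were 365, 362 and 415 CPM in WT and 511, 394 and 460 CPM in LOF, which overlapped through LOF embryo 2, at 0.26 ± 0.09 (FDR 0.260).

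Rrp12 (chr19:41862851-41896173, minus strand) encodes a HEAT-repeat protein of pre-40S export. Its RNA was 125, 121 and 130 CPM in WT and 151, 147 and 148 CPM in LOF. The LOF values were tight and apart, at 0.25 ± 0.05 (FDR 0.0261), with RPF at 0.18 ± 0.07. Nop14 (chr5:34638536-34660148, minus strand), a nucleolar factor of 18S rRNA maturation, had RNA of 69.8, 67.7 and 68.3 CPM in WT and 78.0, 77.7 and 80.3 CPM in LOF. Its change was 0.20 ± 0.05 in RNA (FDR 0.0573) and 0.21 ± 0.06 in RPF (FDR 0.159), without overlap in either.

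The other processome scaffolds Heatr1 and Wdr43 had RNA changes of 0.17 ± 0.05 (FDR 0.108) and 0.16 ± 0.05 (FDR 0.129), just outside the threshold, and neither overlapped in RNA. Riok1 and Riok2 encode kinases of late pre-40S maturation. Riok1 RNA was 50.2, 48.3 and 50.6 CPM in WT and 47.9, 50.0 and 51.0 CPM in LOF, while its RPF were 63.6, 57.4 and 59.5 CPM in WT and 67.6, 71.6 and 66.8 CPM in LOF. RPF were thus higher in each LOF embryo at an RNA level that overlapped, and its RPF/RNA change was 0.19 ± 0.09 (not called). Riok2 had 0.13 ± 0.05 in RNA and 0.15 ± 0.07 in RPF.

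Nob1, the endonuclease that makes the final cut of 18S rRNA, had RPF of 96.7, 101 and 99.8 CPM in WT and 124, 117 and 112 CPM in LOF. These did not overlap, at 0.25 ± 0.07 (FDR 0.139). At the other end of the group, Imp3 had -0.07 ± 0.07 in RNA and -0.05 ± 0.08 in RPF, and its partner Imp4 0.02 ± 0.04 and -0.02 ± 0.07. Bms1 (0.07 ± 0.04 and -0.04 ± 0.07) and Utp15 (0.01 ± 0.05 and -0.08 ± 0.08) were also near 0. Rrp9, the protein that binds the U3 snoRNA, had the lowest RPF/RNA value of all members, -0.16 ± 0.10, which was not called.

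Of the 19 large-subunit genes 2 were higher in RNA, Nop2 and Rrs1, and none was called in RPF, with medians of 0.07 in RNA and 0.11 in RPF. Nop2 (chr6:125131909-125144753, plus strand) encodes a 28S rRNA methyltransferase. Its RNA was 172, 168 and 181 CPM in WT and 203, 197 and 206 CPM in LOF, apart at 0.22 ± 0.05 (FDR 0.0410). Its RPF were 285, 290 and 310 CPM in WT and 350, 330 and 362 CPM in LOF, apart at 0.24 ± 0.07 (FDR 0.131). Rrs1 (chr1:9545408-9547455, plus strand), a gene of 1 exon, encodes a factor that helps bring the 5S particle into the large subunit. Its RNA was 124, 134 and 136 CPM in WT and 151, 153 and 145 CPM in LOF, apart at 0.18 ± 0.05 (FDR 0.0908).

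Nop16 RPF were 101, 93.9 and 102 CPM in WT and 124, 109 and 115 CPM in LOF, without overlap, at 0.23 ± 0.07 (FDR 0.192). Its RNA was 71.6, 64.6 and 69.7 CPM in WT and 68.6, 68.3 and 70.5 CPM in LOF, at 0.01 ± 0.05. Its RPF/RNA change was 0.22 ± 0.09, 1 of the 2 with an unadjusted p under 0.05, and was not called by the edgeR interaction test (FDR 1).

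The 3 proteins of the PeBoW complex, which acts on the pre-60S particle, gave 0.05 ± 0.08 (Pes1), 0.19 ± 0.06 (Bop1) and 0.19 ± 0.09 (Wdr12) in RPF, and 0.04, 0.08 and 0.08 in RNA. None was called. Mdn1 (chr4:32657119-32775217, plus strand, 102 exons) had RNA of 632, 684 and 623 CPM in WT and 793, 727 and 681 CPM in LOF, which overlapped by 1 embryo of each genotype, at 0.18 ± 0.06 (FDR 0.182). Its RPF change was 0.22 ± 0.08 (FDR 0.270). Ebna1bp2 had 0.21 ± 0.07 in RPF without overlap (FDR 0.172) and 0.05 ± 0.06 in RNA. Nip7 had 0.09 ± 0.08 and 0.03 ± 0.05, X-linked Las1l 0.06 ± 0.07 and 0.07 ± 0.05, and Sdad1 -0.01 ± 0.06 and -0.00 ± 0.05, in RPF and RNA.

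The other 8 large-subunit genes lay between 0.05 and 0.12 in RPF and between 0.04 and 0.13 in RNA, and none was called. They are Brix1, Gnl2, Gnl3 (nucleostemin), Grwd1, Nol9, Nvl, Rrp1 and Rrp1b. Of these, Grwd1, Nvl and Gnl2 had RNA that did not overlap (0.13 ± 0.05, 0.11 ± 0.04 and 0.10 ± 0.05). The remaining small-subunit genes, Utp4, Ltv1, Tsr1 and Wdr75, lay between 0.03 and 0.13 in RPF and between 0.05 and 0.13 in RNA, none called.

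The 4 multifunctional genes had the highest medians of the groups, 0.17 in both RNA and RPF, and all 4 values were positive in each. Mybbp1a (chr11:72441355-72451768, plus strand), a large nucleolar protein that binds MYB and takes part in pre-rRNA processing, had RNA of 588, 617 and 589 CPM in WT and 692, 717 and 718 CPM in LOF. The sets lay far apart, at 0.24 ± 0.05 (FDR 0.0292). Its RPF were 1252, 1280 and 1259 CPM in WT and 1607, 1331 and 1433 CPM in LOF, apart at 0.21 ± 0.07 (FDR 0.242). Spns2, on the opposite strand, overlaps its exons.

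Ddx21 (chr10:62580251-62602281, minus strand), an RNA helicase that joins RNA polymerase I transcription to processing, had RNA of 494, 522 and 533 CPM in WT and 614, 602 and 564 CPM in LOF. These did not overlap, at 0.20 ± 0.05 (FDR 0.0816), and its RPF change was 0.20 ± 0.06 (FDR 0.174). Npm1 had RNA of 2958, 2896 and 3067 CPM in WT and 3408, 3267 and 3191 CPM in LOF, without overlap, at 0.15 ± 0.05 (FDR 0.177). Its RPF were 5688, 6084 and 6033 CPM in WT and 7423, 6225 and 5972 CPM in LOF, which overlapped through LOF embryo 3. Ncl had 0.12 ± 0.06 in RNA and 0.14 ± 0.07 in RPF, with overlap in both.

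**Figure D4:**
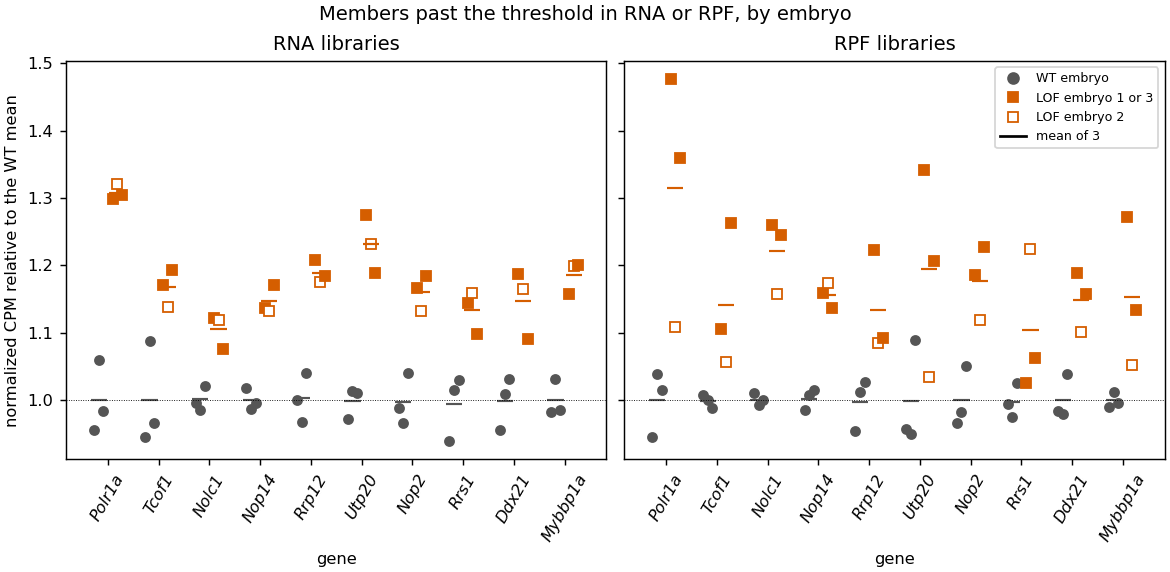
Normalized CPM of each embryo relative to the WT mean (y) for the 10 members called in RNA or RPF (x), in RNA (left) and RPF (right), with WT embryos as circles, LOF embryos as squares (LOF embryo 2 open) and short lines for the means of 3. In RNA all LOF squares lie above all WT circles for these genes, and in RPF LOF embryo 2 lies nearest to WT for 8 of them.

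Long coding sequences went with larger RNA changes. All 9 members with a CDS over 3000 nt had positive RNA values, with a median of 0.22, and 5 were called (Polr1a, Utp20, Rrp12, Mybbp1a and Tcof1). Of the 34 members with 1000 to 3000 nt, 31 were positive, with a median of 0.11 and 4 called. Of the 11 members under 1000 nt, 8 were positive, with a median of 0.03 and none called. Over all transcripts the medians of these classes were 0.04, -0.00 and -0.02, and 3.57%, 1.61% and 1.18% of them were called higher. The Spearman correlation of RNA change with CDS length was 0.496 over the 54 members and 0.128 over all transcripts. In RPF it was 0.265 and -0.00453. With the length of the whole transcript, over which RNA was counted, the correlation of the RNA change was 0.2 and 0.0927. These are descriptions across genes measured in the same libraries.

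**Figure D5:**
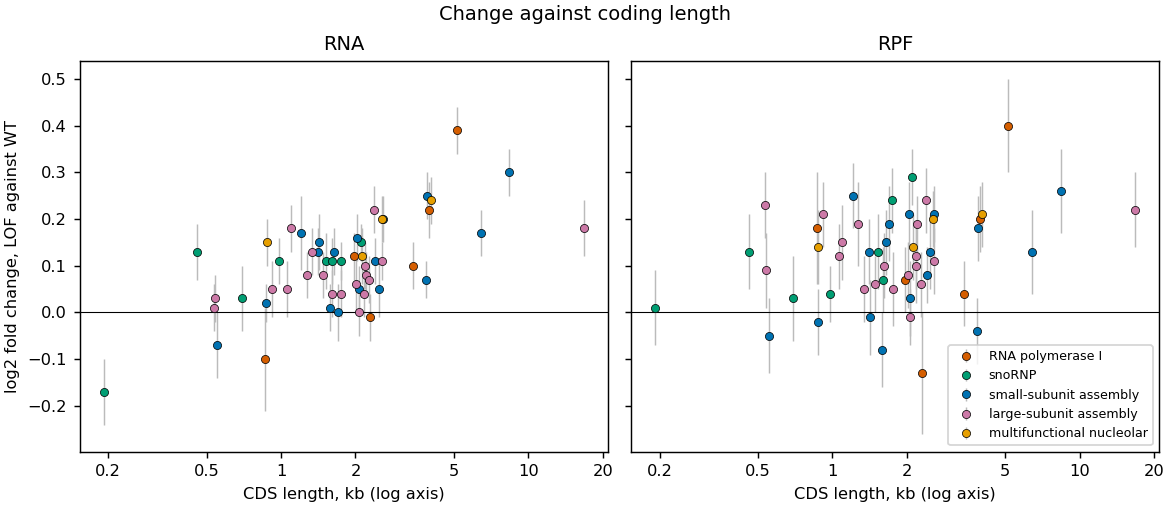
Log2 fold change of LOF against WT (y, with its standard error) against CDS length (x, log axis, kb) for the 54 members in RNA (left) and RPF (right), coloured by group. In RNA the 9 members with over 3 kb of CDS are all positive (median 0.22), while the 11 members under 1 kb have a median of 0.03.

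Members also held more small nucleolar RNA genes in their bodies than other transcripts. Of the 54, 8 (14.8%) contained at least 1 snoRNA gene on their strand in the GENCODE annotation, 29 snoRNA genes in all, against 226 of 12575 transcripts (1.80%). Taf1d held 8, Nop56 held 5 (Snord57 and Snord110 among them), Nop58 held 4 (Snord11 and Snord70 among them), Wdr43, Gnl3 and Ncl held 3 each, Tsr1 held 2 and Dkc1 held 1. Nop56, Nop58 and Dkc1 thus carry snoRNA genes in addition to encoding the proteins of snoRNPs. None of the 8 hosts was called in RNA or RPF, and their RNA changes ran from -0.10 (Taf1d) to 0.16 (Wdr43). The snoRNAs themselves were not measured.

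A longer list of the pathway was described in the same way. Of 116 further ribosome biogenesis genes 115 were tested, and 9 were called in RNA (1.77% of all transcripts called higher) and 5 in RPF (1.05% of all), all higher, and none in RPF/RNA. Their median log2 fold changes were 0.07 in RNA and 0.12 in RPF, with 100 and 96 of 115 positive. By group the RNA medians were 0.06 for other RNA polymerase I genes, 0.05 for snoRNP assembly, 0.10 for the small subunit, 0.09 for the large subunit and 0.04 for the RNA exosome, which trims rRNA precursors. No exosome gene (13) and no further RNA polymerase I gene (10) was called.

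Of the genes called, the largest changes in RNA were those of Wdr46 (0.33 ± 0.06, FDR 0.0199), Nop53 (0.27 ± 0.05, FDR 0.0235), Nol6 (0.25 ± 0.05, FDR 0.0260), Bysl (0.24 ± 0.06, FDR 0.0524) and Ftsj3 (0.23 ± 0.05, FDR 0.0627), all factors of subunit assembly. The 5 genes called in RPF were Wdr74, Nol7, Znhit6, Utp14a and Wdr46. Nol7 RPF were 78.2, 72.8 and 73.7 CPM in WT and 101, 116 and 117 CPM in LOF, at 0.57 ± 0.08 (FDR 0.0163). Its RNA was 70.0, 68.8 and 75.9 CPM in WT and 79.5, 78.6 and 72.6 CPM in LOF, which overlapped, at 0.11 ± 0.06. RPF of Nol7 were thus higher in LOF with little difference in RNA, and its RPF/RNA change was 0.47 ± 0.10, not called after adjustment (FDR 0.974). Wdr74 had 0.73 ± 0.15 in RPF (FDR 0.0572) from low counts, 58 in its weakest library. Znhit6, a box C/D snoRNP assembly factor, had 0.39 ± 0.09 (FDR 0.0848), X-linked Utp14a 0.33 ± 0.08 (FDR 0.0979) and Wdr46 0.30 ± 0.07 (FDR 0.0890).

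The calls varied with the embryos and the fit more than the directions did. Over 15 alternative settings Polr1a stayed called in RNA in 14, Utp20 in 13, Rrp12 and Mybbp1a in 12 each and Nop2 in 11. Ddx21, Tcof1, Rrs1 and Nop14 stayed called in 7, 6, 5 and 4. In RPF Nolc1 stayed called in 9 and Polr1a in 8. RNA changes of these 9 genes ran from 0.15 to 0.43 over all settings. With limma-voom and sva, 20 members were called in RPF, all higher, where 1306 of all transcripts were called. Without LOF embryo 2, 16 members were called in RPF (15 higher, and Ubtf lower), where 1449 of all transcripts were called. Without WT embryo 1, 2 or 3 or LOF embryo 3 no member was called in RPF, where 12, 4, 151 and 40 of all transcripts were.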

How the data were processed

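Ribosome profiling and RNA-seq counts of 3 WT and 3 LOF embryos (12 libraries) were used. Per the study's methods, the authors removed rRNA, tRNA and snRNA reads with Bowtie2, aligned the rest to canonical GENCODE transcripts (GRCm38/mm10), removed duplicates with UMI-tools and counted RPF by A site in the CDS, without the first 15 and last 5 codons, and RNA over whole transcripts. The deposited values are raw counts, and the counting strand is not given in the sources used here. Gene names came from GENCODE (21987 of 22467 transcripts by version, 477 by another version, 3 unmatched), and promoters from RefSeq. The 54 genes and all lists were chosen with earlier results of these data known.

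Transcripts that passed 0.75 CPM in 3 or more of the RPF libraries were tested with edgeR 4.0.16 (R 4.3.3) by its quasi-likelihood test, with TMM within library type and Benjamini-Hochberg adjustment (FDR under 0.1). RPF/RNA was the interaction over 12 libraries, with no term for embryo in the main fit. Embryo means used a pseudocount of 0.5 CPM. Standard errors were derived from the F statistic. Steps were tested on simulated data. Named were members called, those with the largest change, highest RPF level or lowest ratio in their group, Rpl10a, and at most 5 called pathway genes in each comparison. The other members are named to account for all 54, chosen after their values were seen. RPF and RNA libraries of 1 embryo are paired by their labels (correlation of deviations 0.191 to 0.403), which the block for embryo uses. Replicates differed by more than counting noise (chi-square per degree of freedom 2.15 to 10.2). Alternatives were DESeq2 1.42.0, limma-voom (limma 3.58.1) without and with sva 3.50.0, RLE size factors, no filter, a filter at 2 CPM, a replicate block, a Y-linked covariate and each embryo left out. A fit of the 4 embryos with over 100 CPM of Y-linked genes was added after the data had been seen. Reads that genes such as Npm1 share with processed copies could not be examined, and protein sequences were not used here.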

Additional observations from a re-analysis of the deposited data

How the results depend on the processing

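No called change of the named members, the named pathway genes or Rpl10a reversed. Of 990 refitted changes of named members 896 kept their side of the threshold, 64 lost the call and 30 gained it, and of 450 of the other named genes these were 385, 57 and 8. In RPF the 2 called members became 20 with limma-voom and sva, 1 with the replicate block, 0 with the Y-linked covariate, 5 in the embryos with Y-linked counts, and 0 to 16 with an embryo left out. The 276 called transcripts became 1306 with sva, 437 without the low-count filter, 22 with the Y-linked covariate, 486 in the embryos with Y-linked counts, and 4 to 1449 with an embryo left out. The members' median RPF change ran from 0.05 (without LOF replicate 1) to 0.16. In RNA the 9 called members became 5 with the replicate block, 0 with the Y-linked covariate, 1 in the embryos with Y-linked counts, and 2 to 7 with an embryo left out. The 631 called transcripts became 35 with the Y-linked covariate, 100 in the embryos with Y-linked counts, and 138 to 594 with an embryo left out. The members' median RNA change stayed between 0.09 and 0.12. In RPF/RNA no member was called in any of these fits, the block for embryo included, and transcripts numbered 4 with DESeq2, 2 in the embryos with Y-linked counts and 0 to 26 with an embryo left out. WT and LOF embryos of one replicate number share only that number (correlations of their deviations -0.1 to 0.0819), so the counts under the replicate block are not read as weaker effects. The embryos with Y-linked counts include 1 LOF embryo, assumed to vary like the WT embryos, and the cause of these differences was not tested. At 3 embryos a genotype, standard errors of 0.04 to 0.13 in the members' RPF and RNA changes limit what can be called among changes of this size.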
